A study of Ovis aries with 62 samples.

Results

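*GCNT3* (ENSOARG00000000900), *DUSP14* (ENSOARG00000003927) and *PROSER2* (ENSOARG00000014417) are 3 of the 16011 genes measured across the full thickness of the ventral rumen wall in 62 AUS sheep. The 3 genes were chosen on their low levels in test block 1, so the difference between block 1 and the other blocks is described here without a test. *LIPN* (ENSOARG00000014420), which was also low in block 1, was the gene they were compared with. The sheep were adult Merino ewes that were assigned at random to 4 test blocks and fed the same chaffed lucerne and oat diet, and no drug, edit or diet contrast was applied. Blocks 1 to 4 held 16, 16, 14 and 16 sheep with 1 RNA library each, and the labels gave live weight, CH4 production and dry matter intake (DMI) per sheep. Each *p* measures the spread between sheep and takes them as independent. The ewes were daughters of a few sires, and sire was not in the labels used here.

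The inner face of the rumen is a stratified squamous epithelium, in which cells leave a basal layer, differentiate through spinous and granular layers and end as flattened, keratinized cells that form the barrier to the rumen contents. Below it lie connective tissue and the smooth muscle that mixes and moves the digesta. *GCNT3* encodes a Golgi enzyme that adds the branching N-acetylglucosamine of core 2 and core 4 O-glycans on mucin-type glycoproteins. *DUSP14* encodes a dual-specificity phosphatase that removes phosphate from MAP kinases and from the TAK1-binding protein TAB1. *PROSER2* encodes a protein rich in proline and serine. *LIPN* belongs to the acid lipase family and is known from keratinocytes in the last steps of differentiation.

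Levels are the deposited log2 CPM, that is, reads of a gene scaled to the size of its library, so a step of 1 is a doubling, and levels of different genes are not compared since gene length was not used. The libraries held 4208032 to 12130080 assigned reads with a median of 7923973, and the median was 6812019 in block 1 against 8215480, 8694507 and 8588580 in blocks 2, 3 and 4. A sample of the whole wall holds muscle and epithelium in varying shares, and fewer cells of a type cannot be told apart from less RNA per cell. Both layers were present in every library, as the keratin *KRT78* was at 6.99 log2 CPM or higher in each and the summed smooth muscle markers at 13.38 or higher.

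*GCNT3* was low and spread widely in block 1. In block 1 its level was 3.82 in the lowest sheep (oz89), 6.65 at the median and 8.18 in the highest (oz73), on 71 to 2770 reads. In block 2 it was 7.25 in the lowest sheep, 7.90 at the median and 8.75 in the highest. In block 3 the lowest, median and highest levels were 7.07, 8.01 and 8.67, and in block 4 they were 7.43, 8.15 and 8.47. Blocks 2–4 overlapped with each other, and 11 of the 16 block 1 sheep lay below every sheep of those blocks while the rest lay within it. The mean was 6.45 ± 1.41 (SD, *n* = 16) in block 1 and 7.91 ± 0.394 (SD, *n* = 16), 7.90 ± 0.473 (SD, *n* = 14) and 8.06 ± 0.331 (SD, *n* = 16) in blocks 2, 3 and 4. Block 1 minus the mean of the other block means was -1.51 on the log2 scale, a level 2.84-fold lower, and the difference of medians was -1.34.

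*DUSP14* showed the same picture. In block 1 it was 2.49 in the lowest sheep (oz171), 5.66 at the median and 7.23 in the highest (oz10), on 37 to 969 reads. The lowest and highest levels were 6.45 and 7.59 in block 2, 6.20 and 7.45 in block 3 and 6.63 and 7.31 in block 4, with medians of 6.86, 6.88 and 7.03. Here too 11 of the 16 block 1 sheep lay below every sheep of blocks 2–4. The mean was 5.33 ± 1.40 (SD, *n* = 16) in block 1, 6.87 ± 0.276 (SD, *n* = 16) in block 2, 6.87 ± 0.378 (SD, *n* = 14) in block 3 and 6.996 ± 0.185 (SD, *n* = 16) in block 4. The block 1 difference was -1.58 on the log2 scale, a level 3.00-fold lower, and that of medians was -1.24. The SD in block 1 was 4.89 times the SD within blocks 2–4, which placed *DUSP14* at rank 8 of the 16011 genes for that ratio.

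*PROSER2* was the least abundant of the 3 by reads, and in the sheep that were lowest it was close to the limit of the libraries. In block 1 it was -0.28 in the lowest sheep (oz171, 5 reads), 3.09 at the median and 4.79 in the highest (oz73, 214 reads). In blocks 2, 3 and 4 the lowest levels were 4.13, 3.59 and 3.84, the medians 4.39, 4.33 and 4.49 and the highest levels 5.33, 5.004 and 4.96, on at least 90 reads. Of the 16 block 1 sheep, 10 lay below every sheep of blocks 2–4. The mean was 2.85 ± 1.56 (SD, *n* = 16) in block 1, 4.47 ± 0.360 (SD, *n* = 16) in block 2, 4.36 ± 0.383 (SD, *n* = 14) in block 3 and 4.49 ± 0.316 (SD, *n* = 16) in block 4. The block 1 difference was -1.59 on the log2 scale, a level 3.02-fold lower, and that of medians was -1.29.

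By the size of the difference *PROSER2*, *DUSP14* and *GCNT3* stood at ranks 67, 68 and 79 from the lowest of all 16011 genes, where the median difference was -0.01. *LIPN* stood at rank 12, with a mean of 5.97 ± 1.93 (SD, *n* = 16) in block 1 against 8.18 ± 0.543 (SD, *n* = 46) in blocks 2–4. By the ratio of the SDs *PROSER2* stood at rank 16 and *GCNT3* at rank 32, with ratios of 4.43 and 3.53, while the median ratio of all genes was 1.06. Leaving out any single sheep gave differences of -1.62 to -1.33 for *GCNT3*, -1.71 to -1.40 for *DUSP14* and -1.72 to -1.39 for *PROSER2*.

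**Figure D1:**
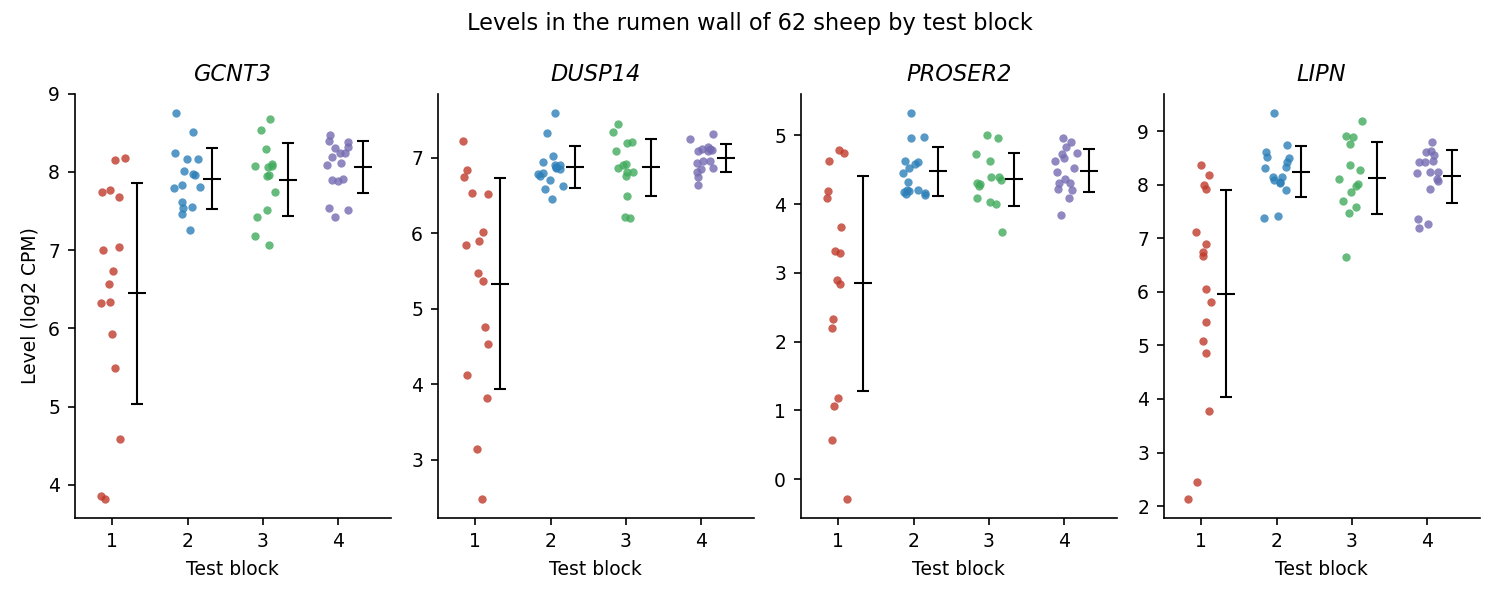
Level in log2 CPM (y axis) of the 3 genes and *LIPN* in each sheep (points) by test block (x axis), with the mean and SD of each block as a black bar. Block 1 reaches from the level of the other blocks down to 3.82 for *GCNT3*, 2.49 for *DUSP14*, -0.28 for *PROSER2* and 2.14 for *LIPN*, while blocks 2, 3 and 4 lie together.

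The losses fell largely in the same sheep for the 3 genes. In 10 block 1 sheep (oz85, oz89, oz93, oz109, oz125, oz152, oz165, oz171, oz192 and oz196) all 3 genes were below every sheep of blocks 2–4, and oz40 was the only further sheep in which any of them was. In 7 of these 10 sheep *LIPN* was below every sheep of blocks 2–4 as well, the exceptions being oz152, oz165 and oz196. Sheep oz10, oz39, oz73, oz166 and oz184 of block 1 had levels within the range of blocks 2–4 for all 3 genes. No sheep of blocks 2–4 was more than 1 log2 step below the median of those blocks for any of the 3 genes.

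The 3 genes fell in near proportion to each other. Over the 16 sheep of block 1, Pearson's *r* was 0.99 between *DUSP14* and *PROSER2* (Spearman's rho 0.98), 0.96 between *GCNT3* and *DUSP14* (rho 0.95) and 0.96 between *GCNT3* and *PROSER2* (rho 0.94). A step of 1 in *DUSP14* went with 1.11 ± 0.0412 (SE, *n* = 16) in *PROSER2* and with 0.97 ± 0.0719 (SE, *n* = 16) in *GCNT3*. The log2 level of *DUSP14* minus that of *PROSER2* was 2.48 ± 0.262 (SD, *n* = 16) in block 1 and 2.47 ± 0.247 (SD, *n* = 46) in blocks 2–4, so that this offset spread about as much in block 1 as elsewhere although each gene spread far more. The offset between *GCNT3* and *DUSP14* was 1.12 ± 0.378 (SD, *n* = 16) in block 1 and 1.04 ± 0.278 (SD, *n* = 46) in blocks 2–4. These values are a description, since the losses in block 1 chose the genes.

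Library depth and the mean level of muscle genes moved with the losses in block 1. Over its 16 sheep the correlation with the assigned reads was 0.68 for *GCNT3* (rho 0.64), 0.59 for *DUSP14* (rho 0.58) and 0.61 for *PROSER2* (rho 0.58), and the shallowest library of the block, oz89 with 4754572 reads, was among the lowest for each gene. In blocks 2–4 the same correlations were 0.08, -0.13 and 0.04. The muscle mean, which averages the log2 CPM of 647 muscle genes listed by the study, was 6.24 ± 0.331 (SD, *n* = 16) in block 1 against 5.82 ± 0.329 (SD, *n* = 46) in blocks 2–4. The study drew this list from co-expression networks that include these sheep, so the muscle mean is not a separate measure of the muscle share. In block 1 *r* with the muscle mean was -0.65, -0.61 and -0.64 for *GCNT3*, *DUSP14* and *PROSER2*. With the mean of 12 smooth muscle markers it was -0.37, -0.29 and -0.31. With the muscle mean as a covariate the block 1 difference was -0.97 for *GCNT3*, -1.14 for *DUSP14* and -1.12 for *PROSER2*, and with the log2 of the assigned reads as a covariate it was -1.26, -1.42 and -1.36. Each of these fits took 1 slope for all blocks, so the losses in block 1 entered the slope that was used. The slope on the muscle mean was -1.26, -1.05 and -1.12 over all 62 sheep. In blocks 2–4 it was smaller in size, at -0.75, -0.54 and -0.47. The part of depth itself in the losses was not tested.

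Among the 46 sheep of blocks 2–4, which the choice of genes did not set against each other, the levels differed by little between blocks. The largest difference between block means was 0.16 on the log2 scale for *GCNT3* (limma F test over 3 blocks, adjusted *p* = 0.921), 0.12 for *DUSP14* (adjusted *p* = 0.907) and 0.13 for *PROSER2* (adjusted *p* = 0.940). Across all genes 1 of 16011 passed this test, a share of 0.00625%, with 1165 genes at an unadjusted *p* under 0.05.

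In blocks 2–4 the 3 genes rose with *LIPN*. A step of 1 log2 in *LIPN* went with 0.38 ± 0.0906 (SE, *n* = 46) in *GCNT3*, 0.31 ± 0.0628 in *DUSP14* and 0.27 ± 0.0871 in *PROSER2*, with block in the fit. The adjusted *p* from limma was 0.00266, 0.000803 and 0.0232. All 3 genes passed, where 9.38% of the 16010 genes tested rose with *LIPN* and 10.7% fell with it. With block means removed Pearson's *r* was 0.53 for *GCNT3* (permutation *p* = 0.00038, rho 0.57, permutation *p* = 0.0001), 0.59 for *DUSP14* (*p* = 2e-05, rho 0.55, *p* = 0.00012) and 0.42 for *PROSER2* (*p* = 0.0047, rho 0.39, *p* = 0.0091), with 100000 permutations within blocks and 2-sided tests. These 3 relations and 3 with the muscle mean were the 6 tested in this way, and their permutation *p* is not adjusted, while that of limma is adjusted over all genes. Without oz61 and oz170, whose *LIPN* levels were most extreme, *r* was 0.45, 0.44 and 0.27.

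The relation was uneven between the blocks. For *GCNT3* *r* was 0.65 in block 2, 0.54 in block 3 and 0.38 in block 4. For *DUSP14* it was 0.53, 0.78 and 0.27. For *PROSER2* it was 0.07 in block 2, 0.78 in block 3 and 0.32 in block 4, so that *PROSER2* showed little relation with *LIPN* in block 2. The call for *PROSER2* was lost without oz61 (slope 0.22, adjusted *p* = 0.105), oz141 (0.24, adjusted *p* = 0.0753) or oz170 (0.25, adjusted *p* = 0.0571). With the muscle mean in the fit the slopes were 0.17 for *GCNT3* (limma adjusted *p* = 0.664), 0.17 for *DUSP14* (adjusted *p* = 0.491) and 0.16 for *PROSER2* (adjusted *p* = 0.709), and 0 of 16010 genes passed, with 1418 at an unadjusted *p* under 0.05.

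In block 1 the slopes on *LIPN* were 0.70 ± 0.0529 (SE, *n* = 16) for *GCNT3*, 0.68 ± 0.0629 for *DUSP14* and 0.76 ± 0.0737 for *PROSER2*, and *r* was 0.96 (rho 0.92), 0.95 (rho 0.92) and 0.94 (rho 0.92). Each slope was steeper than in blocks 2–4 and below 1. Over all 62 sheep with block in the fit the slopes were 0.64, 0.61 and 0.67. The slopes on *LIPN* that include block 1 are given without *p*, since the losses there chose the genes and *LIPN* alike.

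**Figure D2:**
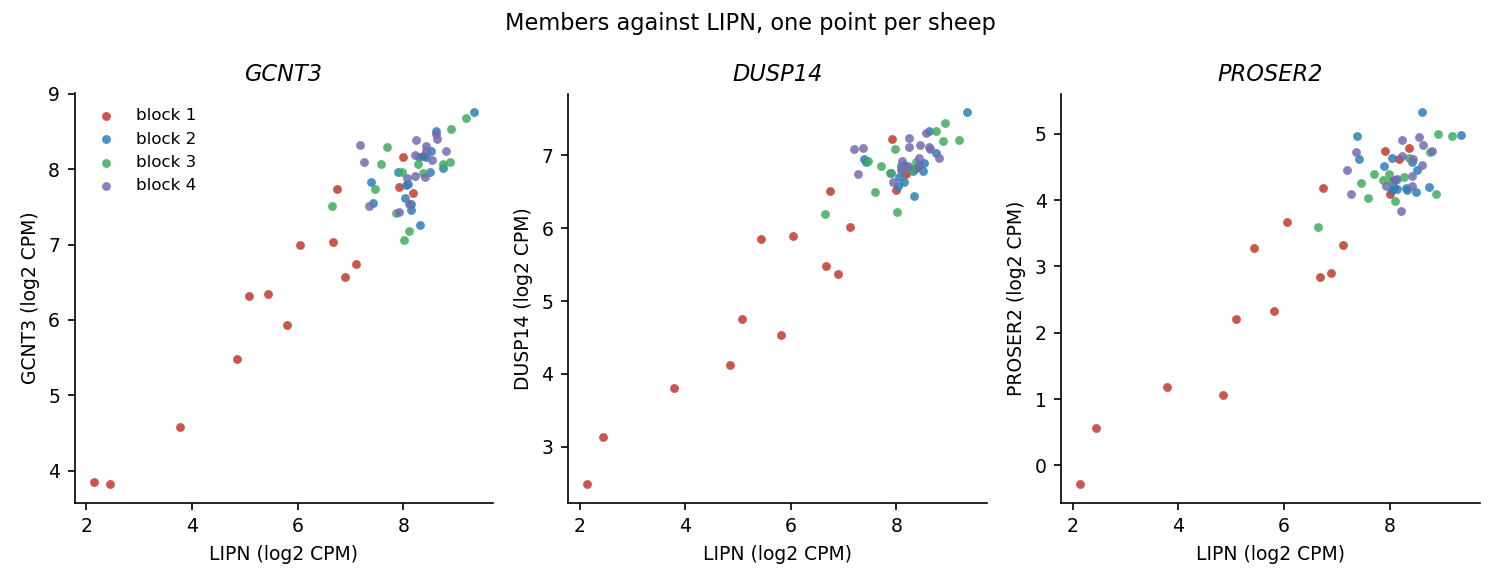
Level of each gene (y axis, log2 CPM) against the level of *LIPN* (x axis, log2 CPM), where each sheep is a point and colors mark the blocks. Block 1 forms a long band with slopes of 0.68 to 0.76, and blocks 2–4 form a cluster at its upper end with slopes of 0.27 to 0.38.

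The genes whose levels followed the 3 most closely were ranked by Pearson's *r* among genes with a symbol and at least 3 CPM in all 62 libraries, and these values carry no *p*. *PROSER2* fell below 3 CPM in some libraries and is therefore not in the ranking itself, and its values are given beside it. Over the 46 sheep of blocks 2–4, *GCNT3* was most like *DUSP14* (*r* = 0.70), which was also its nearest among all 16010 other genes. After *DUSP14* came *TMCO1*, a calcium channel of the endoplasmic reticulum (0.69), *KRT78*, a keratin of stratified epithelia (0.67), *MPDU1*, which is needed for the use of dolichol-linked mannose (0.67), and *TMEM79*, a lamellar granule protein (0.67). In this ranking *DUSP14* was most like *KRT78* (0.77), the sodium-proton exchanger gene *SLC9A3* (0.72), *PRKCH*, a protein kinase C of differentiating keratinocytes (0.71), *GCNT3* (0.70) and *MAL*, which acts in sorting to the apical membrane (0.67), and its *r* of 0.72 with *PROSER2* lay between those with *KRT78* and *SLC9A3*. *PROSER2* was most like *DUSP14* (0.72), *TMEM184A* (0.69), *PRKCH* (0.65), *SLC9A3* (0.63) and the fucosyltransferase gene *FUT4* (0.62).

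*DUSP14* thus stood at rank 2 of 16010 genes for likeness to *PROSER2* in blocks 2–4, and *PROSER2* at rank 6 for *DUSP14*. *GCNT3* stood at rank 10 for *DUSP14* and 64 for *PROSER2*, and *PROSER2* at rank 188 for *GCNT3*. *LIPN* stood further away in those blocks, at rank 245 for *GCNT3*, 65 for *DUSP14* and 418 for *PROSER2*. Within single blocks *r* between *DUSP14* and *PROSER2* was 0.69, 0.73 and 0.82 in blocks 2, 3 and 4. Between *GCNT3* and *DUSP14* it was 0.83, 0.69 and 0.54, and between *GCNT3* and *PROSER2* 0.55, 0.64 and 0.39.

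Over the 16 sheep of block 1 the list was much the same for each gene. *DUSP14* and *PROSER2* were each nearest to the other among all 16010 genes (*r* = 0.99). In the ranking, which leaves out *PROSER2* as a candidate, *KRT78* came first for *GCNT3* (0.97) and *DUSP14* (0.98) and second for *PROSER2* (0.98). *MAL* was next for *GCNT3* and *DUSP14* (0.97 for both) and came after *KRT78* for *PROSER2* (0.97). *MAPK13*, the p38 delta kinase gene, was among the first 5 of the ranking for *GCNT3*, *DUSP14* and *PROSER2* (0.96 for each), and *LIPN* (0.96) and the ceramidase gene *ACER1* (0.95) were among the first 5 for *GCNT3* and *DUSP14*, respectively. With *PROSER2* (0.96 with *GCNT3*) as a candidate, *MAPK13* would not be among the 5 nearest to *GCNT3*, nor *ACER1* among those of *DUSP14*. All points of block 1 share the depth and muscle gradients given above.

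Genes of the same pathways were compared between block 1 and blocks 2–4 with limma (adjusted over 16011 genes), where 19.4% of all genes were lower and 17.2% higher in block 1. With the muscle mean in the fit, an alternative chosen after seeing the data, 7.27% were lower and 7.53% higher. For each gene that fit too took 1 slope on the muscle mean for all blocks. Limma takes 1 variance for all blocks, so that for genes that spread more in block 1, the smaller group, the SE is too small. Each block was 1 test period, so the *p* measures the spread between sheep and not that between test periods. The lists could hold only genes with a symbol, 1224 of 16011. The symbols came from study tables of genes in its co-expression networks, in ketone body metabolism or tied to its traits. The study itself reported lower levels of its epithelial differentiation genes in block 1. The shares and medians of all genes are therefore not a like background for the lists, here or below.

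The list of mucin-type O-glycosylation, the pathway of *GCNT3*, had 3 measured genes beside *GCNT3* of the 40 symbols listed. The fucosyltransferase gene *FUT4* fell by 0.68 ± 0.121 (SE) in block 1 (limma adjusted *p* = 1.06e-05), from a mean of 5.18 to 4.50. *GALNT1*, which starts O-glycan chains on serine and threonine, fell by 0.38 ± 0.0827 (adjusted *p* = 0.000246). *B4GALT1*, a galactosyltransferase gene, rose by 0.99 ± 0.130 (adjusted *p* = 3.09e-08), from 3.07 to 4.06. Holding the muscle mean constant, *FUT4* remained lower (adjusted *p* = 0.0194) and *B4GALT1* higher (adjusted *p* = 1.92e-05), and *GALNT1* did not pass (-0.15, adjusted *p* = 0.185).

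The list of nucleotide sugar supply and N-glycosylation in the endoplasmic reticulum had 20 measured genes, of which 12 act in those steps and 8 in protein folding or translocation there (*P4HB*, *PDIA3*, *DNAJB11*, *ERP29*, *ERP44*, *CANX*, *SSR2* and *SSR4*). All 20 were lower in block 1, with a median of -0.36 against -0.01 for all genes tested, and with the muscle mean in the fit 6 of the 12 and 6 of the 8 were. The nucleotide sugar transporter family gene *SLC35B1* fell by 0.68 ± 0.0988 (SE, adjusted *p* = 2.57e-07), the disulfide isomerase gene *P4HB* by 0.57 ± 0.0880 (adjusted *p* = 7.33e-07) and *ALG5*, which makes dolichyl phosphate glucose, by 0.50 ± 0.0806 (adjusted *p* = 1.76e-06). The 20 differences lay between -0.68 and -0.26, each smaller in size than that of *GCNT3*.

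In the MAP kinase list, the pathway of *DUSP14*, 2 of the 6 other measured genes fell, 3 rose and 1 did not pass. *MAPK13* fell by 0.76 ± 0.113 (SE, adjusted *p* = 3.88e-07), from 7.18 to 6.41, and the receptor gene *ERBB3* by 0.35 ± 0.0723 (adjusted *p* = 0.000132). *MAP2K4*, a kinase that activates JNK, rose by 0.45 ± 0.0841 (adjusted *p* = 2.44e-05), *DUSP3*, a further dual-specificity phosphatase gene, by 0.44 ± 0.145 (adjusted *p* = 0.0130) and the scaffold gene *MAPKBP1* by 0.35 ± 0.0878 (adjusted *p* = 0.00107). Fitted together with the muscle mean, *MAPK13* remained lower (-0.44, adjusted *p* = 0.00183) and *MAP2K4* higher (0.41, adjusted *p* = 0.00201), and *ERBB3*, *DUSP3* and *MAPKBP1* did not pass. Only 7 of the 40 symbols listed had a measured gene, *DUSP14* included.

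Of the 38 measured genes of the cornified envelope and barrier other than *LIPN*, 31 were lower in block 1, 7 did not pass and none were higher, with a median of -0.58. Of the 41 symbols listed 39 had a measured gene, *LIPN* included. This list, like the others, was chosen with earlier results of these data known, so its count is not separate evidence. *PRD-SPRRII* of the small proline-rich family fell by 1.64 ± 0.281 (SE, adjusted *p* = 5.64e-06), *KRT78* fell by 1.62 ± 0.247 (adjusted *p* = 7.02e-07) and the endonuclease gene *ENDOU* by 1.31 ± 0.212 (adjusted *p* = 1.94e-06). These differences were of the size of those of the 3 genes, and *KRT78* reached from 6.99 to 12.34 over the block 1 sheep. Fitted with the muscle mean, 14 of the 38 were lower and none higher. All 4 epithelial transcription factor genes with a symbol fell, *ELF3* by 0.88 ± 0.131 (adjusted *p* = 3.86e-07), *PRDM1* by 0.64 ± 0.143 (adjusted *p* = 0.000288), *EHF* by 0.55 ± 0.100 (adjusted *p* = 1.54e-05) and *OVOL1* by 0.35 ± 0.111 (adjusted *p* = 0.00993), and 3 of them did with the muscle mean in the fit.

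Markers of the other cells of the wall moved in block 1 as well. All 12 measured smooth muscle markers were higher, with a median of 0.52, and their summed level was 13.77 to 16.20 on the log2 CPM scale in block 1 against 13.38 to 15.99 in blocks 2–4. Of 13 fibroblast and matrix markers 8 were higher and none lower, with a median of 0.35 and a summed level of 11.75 to 13.16 against 11.42 to 13.74, and both endothelial markers found, of 7, were higher, with summed levels of 7.20 to 8.57 against 6.26 to 8.43. Of 7 markers of basal epithelium and proliferation 3 were higher, led by the proliferation marker *MKI67* (1.28 ± 0.153, adjusted *p* = 3.50e-09), and none lower, with a summed level of 8.84 to 10.08 against 8.35 to 9.63. Only *LAMA3* among these 7 is a gene of basal cells, and it did not pass (0.19, limma adjusted *p* = 0.0671). The rest are proliferation genes, and symbols of basal keratins such as *KRT5* and *KRT14* were not matched. Once the muscle mean was fitted, all 7 were higher, no smooth muscle or matrix marker was, while 3 of 12 and 2 of 13 were lower, and of the endothelial markers *HEG1* stayed higher (0.48, adjusted *p* = 0.00614) and *MCAM* was lower (-0.15, adjusted *p* = 0.0414). All 7 measured genes of the immune and interferon list were lower, with a median of -0.86 and a summed level of 6.54 to 8.19 against 6.95 to 10.63, and 6 of the 7 are genes of the interferon response or antigen presentation while *LY96* encodes a part of the endotoxin receptor. With the muscle mean in the fit 4 of the 7 were lower, and *MX1*, *PARP14* and *TAP1* did not pass. Symbols of leukocyte-defining genes such as *PTPRC* and *CD3E* were not matched.

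Over the 16 sheep of block 1, *r* of the 3 genes with the mean of a marker list was -0.29 to -0.37 for smooth muscle, -0.34 to -0.38 for fibroblast and matrix, -0.47 to -0.52 for endothelium, 0.14 to 0.19 for basal epithelium and proliferation and 0.22 to 0.25 for immune and interferon genes. The part of these cells in the losses was not tested.

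**Figure D3:**
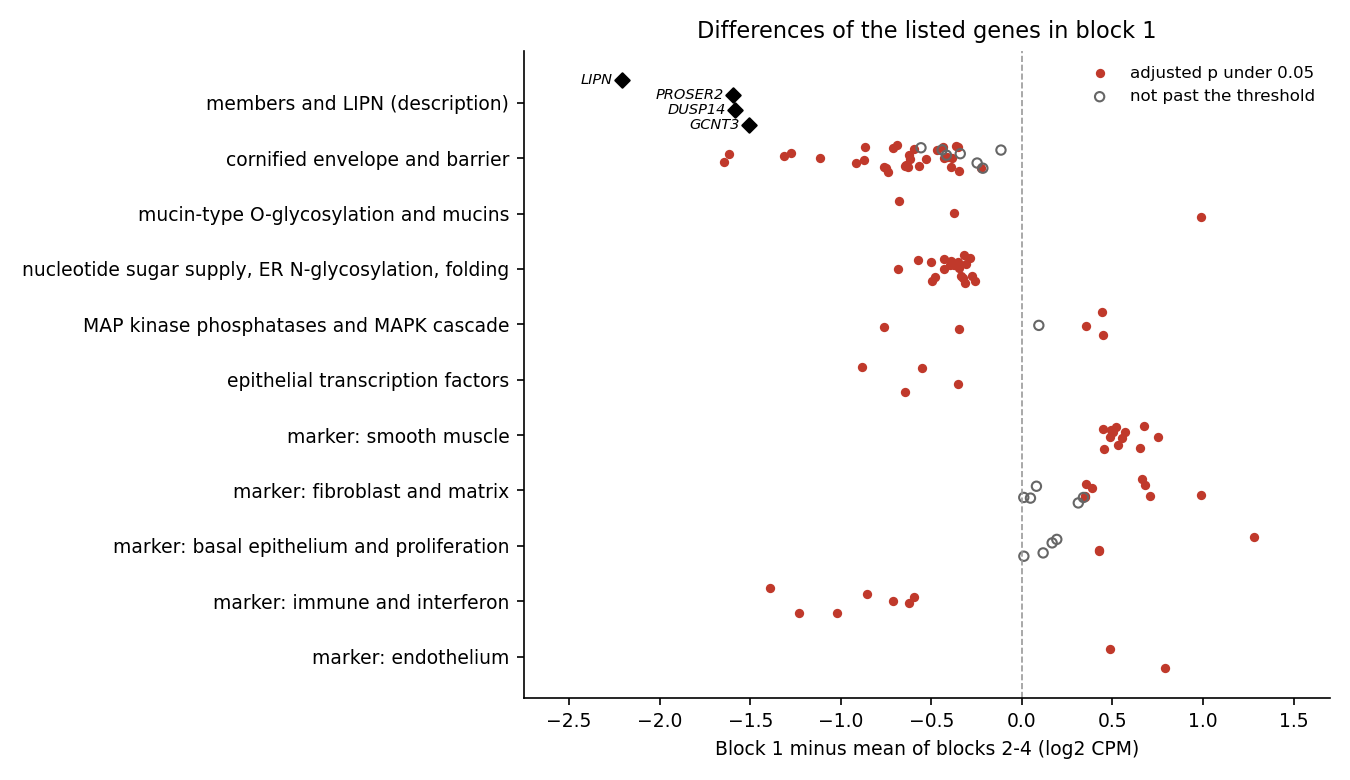
Difference between block 1 and the mean of blocks 2–4 (x axis, log2 CPM) for the 3 genes and *LIPN* (diamonds, no test) and for each measured gene of the pathway and marker lists (points, by list), with filled points past the limma adjusted *p* threshold of 0.05. The 3 genes lie between -1.51 and -1.59, beside *PRD-SPRRII* and *KRT78* at the low end of the barrier list, whereas the genes of the N-glycosylation and folding list lie between -0.68 and -0.26.

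In blocks 2–4 the pathway lists followed *LIPN* as follows. Of the 38 barrier genes 15 rose with *LIPN* and none fell (median slope 0.15), and of the 20 genes of the N-glycosylation and folding list 9 rose and none fell (median 0.12), where 9.38% of all genes rose and 10.7% fell. In the O-glycosylation list 1 of 3 rose, in the MAP kinase list 2 of 6 rose and 2 fell, and 1 of the 4 transcription factor genes rose. All 12 smooth muscle markers and 9 of the 13 fibroblast markers fell with *LIPN* (median slopes -0.58 and -0.42), as did both endothelial markers. Of the basal and proliferation markers 1 of 7 rose, and none of the 7 immune and interferon genes passed in either direction. The median slope of all genes tested was 0.01. None of these calls held with the muscle mean in the fit, where 0 of 16010 genes passed.

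In blocks 2–4 all 3 genes were lower in sheep with a higher muscle mean. With block in the fit over 46 sheep, a step of 1 in the muscle mean went with -0.75 ± 0.136 (SE) in *GCNT3* (limma adjusted *p* = 1.44e-05), -0.54 ± 0.0994 in *DUSP14* (adjusted *p* = 1.98e-05) and -0.47 ± 0.141 in *PROSER2* (adjusted *p* = 0.00676). All 3 genes passed, where 19.6% of the 16011 genes fell with the muscle mean. With block means removed *r* was -0.63 for *GCNT3* (permutation *p* = 2e-05), -0.63 for *DUSP14* (permutation *p* = 1e-05, the smallest possible) and -0.45 for *PROSER2* (permutation *p* = 0.0027), and rho was -0.61, -0.59 and -0.34 (permutation *p* = 2e-05, 6e-05 and 0.022). Without oz141 and oz170, whose muscle means were most extreme, *r* was -0.52, -0.55 and -0.33.

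The slopes were larger in size with block 1 included, which is a description since its losses chose the genes. Over all 62 sheep they were -1.26 ± 0.255 (SE) for *GCNT3*, -1.05 ± 0.252 for *DUSP14* and -1.12 ± 0.290 for *PROSER2*. Within each block *r* with the muscle mean was negative for each gene. For *GCNT3* it was -0.65, -0.68, -0.57 and -0.65 in blocks 1, 2, 3 and 4. For *DUSP14* it was -0.61, -0.69, -0.62 and -0.62, and for *PROSER2* -0.64, -0.34, -0.50 and -0.54. With the 12 textbook smooth muscle markers, all of which are also in the muscle list, in place of that list the slopes in blocks 2–4 were -0.33, -0.23 and -0.20 for *GCNT3*, *DUSP14* and *PROSER2* (limma adjusted *p* = 0.00054, 0.000682 and 0.0336).

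**Figure D4:**
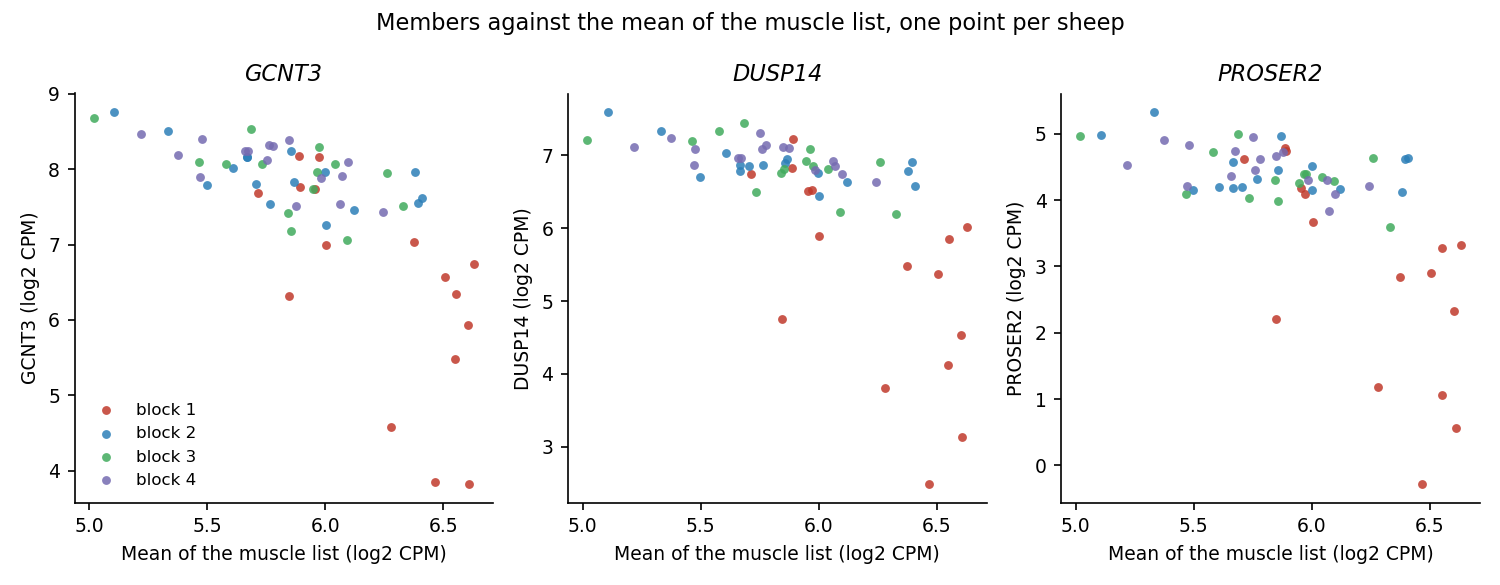
Level of each gene (y axis, log2 CPM) against the mean of the 647 genes of the muscle list (x axis, log2 CPM), where each sheep is a point and colors mark the blocks. The levels are lower at a higher muscle mean, with a negative *r* in every block, and 7 of the 16 block 1 sheep have a muscle mean above 6.41, the highest in blocks 2–4.

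No relation of the 3 genes with a trait passed the test. CH4 production was 24.03 ± 4.72 g/d (SD, *n* = 62), DMI 1.20 ± 0.288 kg/d (SD, *n* = 61), CH4 yield, the production per DMI, 20.6 ± 3.34 g/kg (SD, *n* = 61) and live weight 63.6 ± 8.32 kg (SD, *n* = 62). Sheep oz151 was left out of DMI and CH4 yield because the labels give it an intake far lower than any other, and its CH4 production is labeled with the same value as that of oz224. With block in the fit a rise of CH4 production by 10 g/d went with 0.05 log2 CPM in *GCNT3* (95% interval -0.38 to 0.48, limma adjusted *p* = 0.965), -0.03 in *DUSP14* (-0.44 to 0.37, adjusted *p* = 0.976) and 0.03 in *PROSER2* (-0.43 to 0.50, adjusted *p* = 0.978). Of all genes 4 passed, a share of 0.025%. In blocks 2–4 alone the slopes were larger, at 0.27 ± 0.115 (SE, *n* = 46) for *GCNT3*, 0.11 ± 0.0868 for *DUSP14* and 0.21 ± 0.105 for *PROSER2*, and did not pass (limma adjusted *p* = 0.298, 0.585 and 0.363). By block *r* of *GCNT3* with CH4 production was -0.23, 0.04, 0.73 and 0.36 in blocks 1 to 4.

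Per 10 g/kg of CH4 yield the slopes were -0.08 for *GCNT3* (95% interval -0.74 to 0.58), -0.02 for *DUSP14* (-0.64 to 0.61) and 0.19 for *PROSER2* (-0.52 to 0.90), each with a limma adjusted *p* of 0.999. Per 1 kg/d of DMI they were -0.06 (-0.82 to 0.71, adjusted *p* = 0.999), -0.18 (-0.90 to 0.54, adjusted *p* = 0.986) and -0.22 (-1.04 to 0.59, adjusted *p* = 0.982) for *GCNT3*, *DUSP14* and *PROSER2*, and in blocks 2–4 they were 0.45, 0.24 and 0.20 (adjusted *p* = 0.57, 0.684 and 0.79). By limma 0 of 16011 genes (0.0%) passed for CH4 yield and 0 (0.0%) for DMI, with 514 and 1029 at an unadjusted *p* under 0.05, and limma with voom weights also called 0 for both. The intervals leave room for changes of up to about 1 log2 step per 10 g/kg of CH4 yield or per 1 kg/d of DMI. CH4 yield ranged from 16.2 to 35.7 g/kg and DMI from 0.38 to 1.73 kg/d, so the room is wider over the full ranges. Small relations could therefore not be detected with this number of sheep.

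Over all sheep the slopes on live weight were nearest to the threshold. Per 10 kg the slopes were -0.22 ± 0.120 (SE, *n* = 62) for *GCNT3*, -0.21 ± 0.113 for *DUSP14* and -0.24 ± 0.128 for *PROSER2*, with limma adjusted *p* of 0.594, 0.599 and 0.591 and unadjusted *p* of 0.0695, 0.0732 and 0.0679. No gene of 16011 passed (0.0%), with 1451 at an unadjusted *p* under 0.05, and voom weights also called 0. These slopes rested in part on 1 block 1 sheep, as without oz93 they were -0.11, -0.12 and -0.15, and in blocks 2–4 they were -0.015, -0.062 and -0.090. By block *r* of *PROSER2* with live weight was -0.32, 0.25, -0.74 and -0.23 in blocks 1 to 4, that of *GCNT3* -0.42, 0.06, -0.26 and 0.13 and that of *DUSP14* -0.33, 0.05, -0.45 and -0.09, so that the sign differed between blocks. *LIPN* had slopes of 0.21 ± 0.294 per 10 g/d of CH4 production and -0.18 ± 0.167 per 10 kg of live weight, and did not pass for any of the 4 traits.

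**Figure D5:**
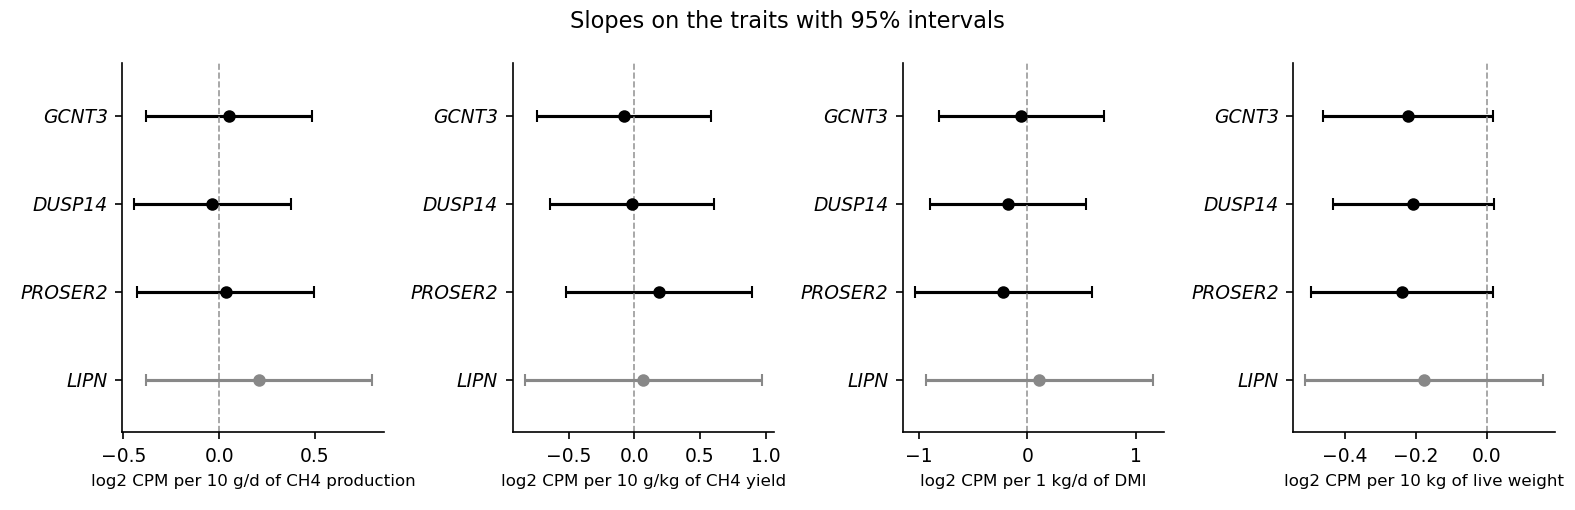
Slope of the 3 genes (black) and *LIPN* (gray) on each trait (x axis, log2 CPM per unit given under each panel) with 95% intervals, from fits with block over 62 sheep, or 61 for CH4 yield and DMI. Every interval covers 0, and for live weight the 3 genes lie between -0.21 and -0.24 with intervals that end just above 0.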

How the data were processed

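Full-thickness ventral rumen wall of 62 AUS sheep was sequenced by the authors as stranded, ribosomal RNA depleted paired-end libraries, aligned (TopHat, Bowtie2) to sheep models from Ensembl and counted with HTSeq. In their processing notes the submitters list edgeR and limma too. For 16011 genes the authors deposited log2 CPM made by voom, with 0.5 reads added. Reads were recovered from them here by scaling each library to whole reads (100.0% of values, tolerance 0.01 reads). Depth per library is the sum of these reads. Low levels rest on few reads, which limits their precision. Symbols came from the tables of the study that pair them with IDs (1224 genes). No coordinates or sequences were used.

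Tests were run in R 4.3.3 by limma 3.58.1 (moderated variances that follow the mean level), with block as a factor, *p* adjusted by Benjamini-Hochberg over all genes and a threshold of 0.05. Intervals of 95% use the residual degrees of freedom. Correlations used Python 3.11.15 with 100000 permutations within blocks. Limma fits of a trait slope, a block contrast and a block F test were run on simulated reads with the same dispersion in every block. The wider spread of block 1 and the permutations were not simulated. Named genes are the 3 genes, *LIPN*, the 5 nearest genes by *r* in blocks 2–4 and in block 1, and up to 3 called genes a direction from each pathway list, plus genes that say what a list holds. The genes and lists were chosen with earlier results of these data known. The planned tests of the 62-sheep slopes (*LIPN*, muscle mean) and of how the *LIPN* slope differs between block 1 and the others are given as values only, since block 1 chose the genes. Alternatives were block terms, covariates, offset, filter, weights, variance model and single sheep left out. The NZ libraries, retention time and short chain fatty acids were not analysed here.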

Additional observations from a re-analysis of the deposited data

How the results depend on the processing

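No paired analysis was possible because each sheep was in 1 block only, with 1 library. Of 325 values of the 3 genes under an alternative, 275 stayed the same, and of 81 counts of genes called 54 stayed within 1.5 times. A tested value stayed the same if it kept its direction and side of the threshold. A value without a test did so if it kept its direction and moved by less than its SE. For the block 1 difference the limit was the SD within blocks 2–4 in place of the SE. Depth as a covariate, the muscle mean for the listed genes and the test of the muscle slope in blocks 2–4 were chosen after seeing the data. No trait slope passed under any alternative run, and those near 0 changed sign. For CH4 production, without a block term *GCNT3* had -0.18 and *PROSER2* -0.19, with the muscle mean -0.059 and -0.063, and *DUSP14* had 0.0079 with voom weights and 0.11 in blocks 2–4. Leaving out single sheep gave slopes of -0.00080 to 0.13 for *GCNT3*, -0.088 to 0.030 for *DUSP14* and -0.035 to 0.10 for *PROSER2*. For CH4 yield, without a block term *GCNT3* had 0.54 and *DUSP14* 0.61, without oz175 0.12 and 0.11, and *GCNT3* had 0.0059 with oz151 kept in. Single sheep left out gave -0.20 to 0.12 for *GCNT3* and -0.15 to 0.11 for *DUSP14*. For DMI, *GCNT3* had 0.069 with array weights, 0.0025 with voom weights and -0.19 to 0.10 without single sheep, *PROSER2* had 0.041 with voom weights, and in blocks 2–4 the slopes were 0.45, 0.24 and 0.20 for *GCNT3*, *DUSP14* and *PROSER2*.

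With the muscle mean in the fit, the slopes on *LIPN* in blocks 2–4 (0.17, 0.17 and 0.16) did not pass and 0 of 16010 genes did. Without single sheep the slope of *PROSER2* was 0.22 to 0.32 and 1936 (without oz141) to 3511 genes were called. Values without a test moved as follows. The slope on the muscle mean over 62 sheep was -1.84, -1.72 and -1.77 without a block term, -0.75, -0.54 and -0.47 in blocks 2–4 and -0.45, -0.34 and -0.34 on textbook markers for *GCNT3*, *DUSP14* and *PROSER2*, and -0.79 for *PROSER2* with voom weights. The slope on *LIPN* over 62 sheep was 0.59 for *GCNT3* with the muscle mean, 0.55 with voom weights and 0.66 without block for *DUSP14*, and 0.55 with an offset of 1 CPM and 0.54 with voom weights for *PROSER2*. The slope in block 1 minus that in blocks 2–4 became 0.50, 0.49 and 0.62 with the muscle mean for *GCNT3*, *DUSP14* and *PROSER2*, and 0.36 for *PROSER2* with an offset of 1 CPM. The block 1 difference with the muscle mean was -0.97, -1.14 and -1.12, and that of medians was -1.24 for *DUSP14*. The cause of these shifts was not tested.

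Counts of genes called for CH4 production were 1 without a trend, 12 with array weights, 0 with voom weights, 2 at 3 CPM or more, 2 without block, 0 in blocks 2–4, 10 with the muscle mean and 0 to 13 without single sheep. CH4 yield had 5 with oz151 kept in, and DMI 0 to 1 without single sheep. Live weight had 66 with array weights, 7 at 3 CPM or more, 3 without block, 40 with the muscle mean and 0 to 18 without single sheep. The test over blocks 2–4 had 0 without a trend, 2 with array weights, 2 with voom weights, 4 at 3 CPM or more, 4 with the muscle mean, 3 with depth and 0 to 7 without single sheep, and block 1 against blocks 2–4 had 2369 with the muscle mean. *PROSER2* fell below 3 CPM in some libraries and has no value under that filter. Levels of a few reads, as for *PROSER2* in the lowest sheep, move in steps.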
